A study of Mus musculus with 6 samples.

Results

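The 10 genes described here encode transcription factors of effector CD8 T cells: Tbx21, Eomes, Zeb2, Prdm1, Id2, Runx3, Zfp683, Ikzf2, Bhlhe40 and Rora. They were taken by symbol from a deposited table of 49315 genes, and all 10 were found. The libraries come from CD8+ T cells sorted from the tumor-draining lymph nodes of wild-type female C57Bl6/J mice carrying B16F10, a transplantable melanoma line. B16F10 is the name in the design text, and the cell line label of the samples spells it differently. Each mouse had a single subcutaneous dose of HCW9218, which the series title describes as a complex of TGF-βRII and IL-15, when its tumor reached 50 to 100 mm3, and was killed on day 5. In the monotherapy group (n = 3 mice) HCW9218 was the only agent, and in the combination group (n = 3 mice) an antibody to PD1 was added by intraperitoneal injection. Every mouse therefore received HCW9218, and each difference below is between HCW9218 with and without anti-PD1, not from untreated mice. The sort took total CD8+ T cells, so naive, memory and effector cells are mixed in each library.

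An activated CD8 T cell becomes a short-lived effector or a longer-lived memory cell largely through the balance of a small set of transcription factors. T-bet and Eomes, the T-box pair, bind related sites and switch on granzymes, chemokines and the shared IL-2 and IL-15 receptor chain; T-bet acts with ZEB2 and Blimp-1 toward terminal effectors, while Eomes is also high in memory cells. Id2 holds E proteins in check in effectors, opposite to its relative Id3 in memory precursors, and Runx3 sets the CD8 lineage and its cytolytic genes. Hobit (Zfp683), Blimp-1 (Prdm1) and Bhlhe40 are linked to tissue residency, and IL-15 is known to induce T-box factors.

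Adding anti-PD1 changed 1 of these 10 factors in edgeR. Tbx21 rose close to 3-fold (fold change 2.93), while the other 9 did not pass at a Benjamini-Hochberg adjusted p under 0.05. Among all 15142 genes tested, 0.951% were called higher and 0.132% lower. Eomes lay higher and Rora lower in every combination library than in any monotherapy library, but neither passed. The 5 factors with a log2 fold change above 0 were Tbx21, Eomes, Zeb2, Prdm1 and Runx3, and the 5 below 0 were Id2, Zfp683, Ikzf2, Bhlhe40 and Rora. The median of the 10 was 0.02, against 0.00 over all genes tested.

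The libraries held 34568074 to 40101346 counts. CD8 T cell markers were abundant in all of them: Cd8a had 47375 to 63542 counts per library, and 0 of 7 CD8 T cell markers passed the test. In combination replicates 2 and 3 the melanocyte enzyme genes Dct and Tyrp1 had 301 and 377, and 281 and 366 counts, while combination replicate 1 had 0 of each and the monotherapy libraries 0 or 1. Pmel, of the same list of 7 melanocyte markers, was at 24.3, 20.9 and 27.0 CPM in monotherapy and 29.0, 23.0 and 29.9 CPM in the combination. The sum of the list, mostly Pmel, was 21.9 to 28.6 CPM in monotherapy and 30.3 to 55.0 CPM in the combination. This sum was higher in every combination library, so a fit with it as a covariate cannot cleanly separate it from treatment. Each factor is also given below with combination replicate 1 as the only combination library. That setting was chosen after seeing the data and leaves 1 combination mouse, so only its fold changes are given.

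The promoters of the T-box pair are printed here because these were the 2 factors whose combination libraries all lay above monotherapy. Each is the stretch of 250 bases before the RefSeq transcription start (GRCm38.p6), on the gene's own strand, in lower case, with capitals for any match to the 6 motifs searched.
Tbx21, chr11:97115332-97115581, minus strand: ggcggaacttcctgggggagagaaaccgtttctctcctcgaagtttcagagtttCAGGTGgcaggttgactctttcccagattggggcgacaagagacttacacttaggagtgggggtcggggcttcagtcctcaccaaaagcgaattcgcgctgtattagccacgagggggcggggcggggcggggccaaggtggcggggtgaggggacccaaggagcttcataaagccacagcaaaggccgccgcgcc
Eomes, chr9:118477939-118478188, plus strand: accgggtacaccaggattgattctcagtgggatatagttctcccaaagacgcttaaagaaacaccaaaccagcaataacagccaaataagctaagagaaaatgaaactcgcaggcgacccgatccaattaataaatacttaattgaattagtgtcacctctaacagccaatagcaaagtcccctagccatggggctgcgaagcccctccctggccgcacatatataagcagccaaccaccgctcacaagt
The motifs, read on both strands, were CAGGTG (the E-box that ZEB factors bind), CACGTG (an E-box that BHLHE40 binds), GGTGTGA (T-box), TGTGGT (RUNX), TTCNNNGAA (STAT) and TGANTCA (AP-1). The Tbx21 stretch held CAGGTG once, 196 to 191 bases before the start, a word found in 17.2% of 32851 promoter windows of this length. The Eomes stretch held none of the 6. Of the 10 genes, 7 had a promoter in the RefSeq table. These matches describe letters and not bound sites, and binding was not measured.

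**Figure D1:**
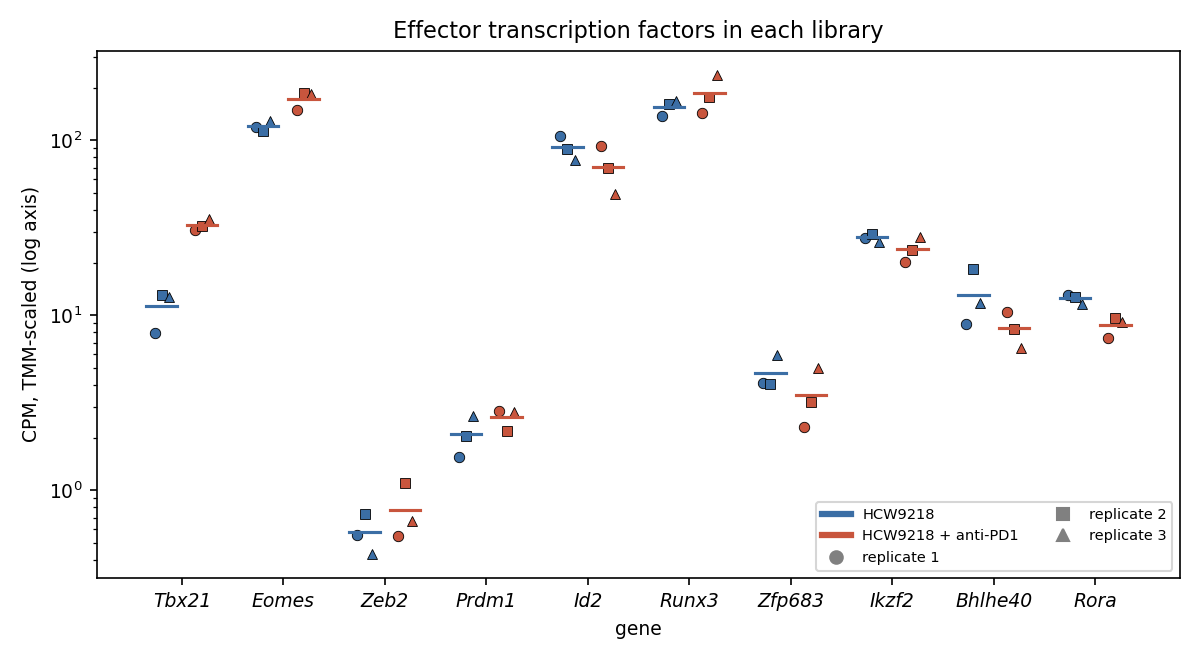
Level of each of the 10 factors in each of the 6 libraries, in TMM-scaled CPM on a log axis; symbols are replicates and horizontal lines group means. The 3 combination libraries of Tbx21 lie at 30.7 to 35.7 CPM, above the 3 monotherapy libraries at 7.94 to 13.0 CPM.

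Tbx21 encodes T-bet, the T-box factor that drives interferon-γ and granzyme genes and terminal effector fate. The gene lies on the minus strand of chr11:97098071-97115331. It had 285, 513 and 531 counts in monotherapy replicates 1, 2 and 3, and 1010, 1232 and 1380 in combination replicates 1, 2 and 3. In CPM, which are counts scaled to a common library size with TMM factors, these were 7.94, 13.0 and 12.8 CPM against 30.7, 32.5 and 35.7 CPM. The groups did not overlap, and the lowest library was monotherapy replicate 1. Group means were 11.3 ± 2.88 and 33.0 ± 2.56 CPM (SD over 3 mice in each group). The log2 fold change was 1.55 ± 0.20 (SE; edgeR adjusted p = 6.91e-03). Its p ranked 37 among the 15142 genes. It passed whichever of the 6 libraries was left out, with log2 fold changes of 1.37 to 1.67 and edgeR adjusted p of 1.91e-03 to 0.0455. Combination replicate 1, which had no Dct or Tyrp1 counts, was at 30.7 CPM. With that library alone as the combination group the log2 fold change was 1.44.

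Eomes encodes Eomesodermin, the T-bet paralog that sustains memory and supports the IL-15 receptor chain Il2rb. It had 119, 113 and 130 CPM in monotherapy replicates 1, 2 and 3, and 149, 186 and 184 CPM in the combination. No combination library fell within the monotherapy range, as for 7.17% of all genes in this direction. The difference was a log2 fold change of 0.52 ± 0.14 (SE) and did not pass (edgeR adjusted p = 0.189). It passed without combination replicate 1, at 0.64 (edgeR adjusted p = 0.0474), and with that library alone as the combination group it was 0.30. With the summed level of the melanocyte marker list as a covariate it was 0.23 (edgeR adjusted p = 0.501). An antisense gene, Gm33460, overlaps Eomes on the other strand and had 17 to 32 counts in monotherapy and 61 to 88 in the combination, against 4258 to 7105 counts for Eomes. Strand use in the counting is not given in the sources used here, so reads of this overlap cannot be told apart.

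Natural killer (NK) cells also hold T-bet and Eomes. Of 9 NK markers, 2 rose (Klre1 and Gzma), 0 fell and 7 did not pass. Gzma is also on the list of T-box targets below. Over all genes tested, 0.951% were called higher and 0.132% lower, and 7549 of 15142 lay above 0. The log2 fold changes of 8 of the 9 were above 0, with a median of 0.54, and Ncr1 was the 1 below, at -0.16. Klra8 had a log2 fold change of 1.52 with groups that did not overlap (edgeR adjusted p = 0.186). The summed level of the 9 was 80.8 to 109 CPM in monotherapy and 90.0 to 155 CPM in the combination. Most of this sum was Cd7, at 66.9 to 93.1 CPM in monotherapy and 66.1 to 117 CPM in the combination. The NK receptor gene Ncr1 had 2 to 13 counts per library in monotherapy and 5 to 11 in the combination. The part of this list in Tbx21 and Eomes was not tested. In bulk libraries a larger share of cells with a transcript and more transcript per cell cannot be told apart.

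Per kilobase of gene length, Eomes remained the more abundant of the pair. Monotherapy libraries held 29.0 ± 2.12 CPM per kilobase of Eomes and 4.53 ± 1.16 of Tbx21 (SD, n = 3 each). Combination libraries held 41.6 ± 5.02 and 13.3 ± 1.03. Tbx21 made up 10.1%, 16.2% and 14.1% of the pair in monotherapy replicates 1, 2 and 3, and 25.6%, 22.6% and 24.5% in the combination. The share was thus higher in each combination library than in any monotherapy library, at 13.5% ± 3.13 and 24.2% ± 1.52 (SD, n = 3 each).

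**Figure D2:**
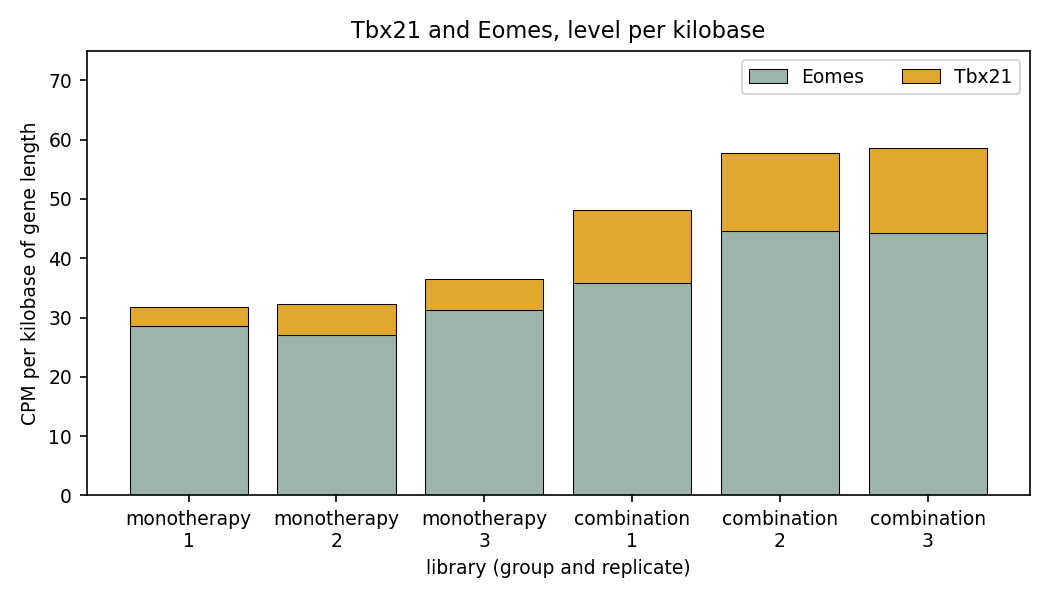
Stacked level of Eomes and Tbx21 in each library, in CPM per kilobase of the deposited gene length. The pair sums to 31.7 to 36.4 in monotherapy and 48.1 to 58.7 in the combination, and Tbx21 takes 22.6% to 25.6% of it in the combination.

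The ratio of 2 genes within a library does not depend on how libraries are scaled, and 5 ratios were tested by exact permutation of the libraries, two-sided. For 3 libraries in each group the smallest possible p is 0.1, so none could pass 0.05. The log2 ratio of Tbx21 to Eomes counts was -3.45 ± 0.41 in monotherapy and -2.38 ± 0.12 in the combination (SD, n = 3 each). The groups did not overlap, and the difference was 1.07 (exact permutation p = 0.1; 0.125 adjusted over the 5 ratios). It ran from 0.84 to 1.24 over the left-out libraries.

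The next ratios set a factor against its antagonist or relative. Id2 to Id3 was lower in every combination library, at 1.40 ± 0.29 and 0.83 ± 0.34 on the log2 scale (SD, n = 3 each; exact permutation p = 0.1). The nearest libraries lay at 1.14 (monotherapy replicate 3) and 1.05 (combination replicate 2). The difference ran from -0.69 to -0.37 over the left-out libraries, the latter without combination replicate 3. Prdm1 to Bcl6, a pair of mutual repressors, was higher in every combination library, at -3.07 ± 0.37 and -2.34 ± 0.24 (SD, n = 3 each; exact permutation p = 0.1), though the nearest libraries lay at -2.68 and -2.61. Left-out libraries gave differences of 0.55 to 0.92. Zeb2 to Zeb1 overlapped between groups, at -6.69 ± 0.47 and -6.31 ± 0.43 (SD, n = 3 each; exact permutation p = 0.5), and the difference of 0.38 ran from 0.12 without monotherapy replicate 3 to 0.58 without monotherapy replicate 2. The last ratio, Zfp683 to Prdm1, was lower in every combination library, at 1.18 ± 0.20 and 0.36 ± 0.59 (SD, n = 3 each; exact permutation p = 0.1), with combination replicate 1 the lowest at -0.30. The nearest libraries lay at 0.98 and 0.83, and the difference of -0.82 ran from -1.05 to -0.48, the latter without combination replicate 1. Adjusted over the 5 ratios, the p of 0.1 became 0.125. Prdm1 enters both Prdm1/Bcl6 and Zfp683/Prdm1, so these are not separate observations. Taken alone, Id2, Prdm1 and Zfp683 each overlapped between groups. How often ratios of other gene pairs keep the groups apart was not computed.

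**Figure D3:**
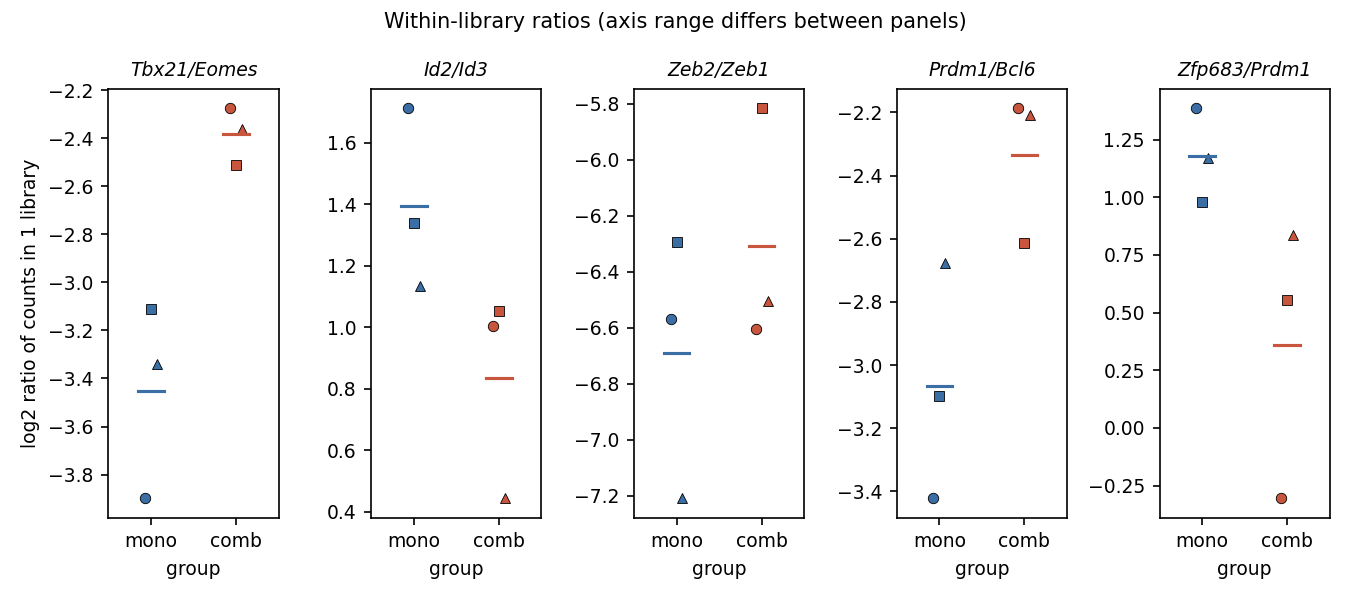
Log2 ratio of counts of each gene pair in each library, with symbols for replicates and lines for group means; the vertical range differs between panels. Groups do not overlap for Tbx21/Eomes, Id2/Id3, Prdm1/Bcl6 and Zfp683/Prdm1, and overlap for Zeb2/Zeb1.

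The factors that act beside T-bet in terminal effectors were scarce. Zeb2, the zinc-finger repressor that acts downstream of T-bet, had 20, 29 and 18 counts in monotherapy and 18, 42 and 26 in the combination. The groups overlapped, and the log2 fold change of 0.44 ± 0.43 (SE) did not pass (edgeR adjusted p = 0.934). It was -0.08 with combination replicate 1 alone as that group. The myeloid gene Lyz2, from cells that also hold Zeb2, had 58 to 423 counts in monotherapy, highest in replicate 3, and 61 to 183 in the combination. Of 4 myeloid markers tested 0 passed, with 2 above 0 and 2 below. The part of myeloid cells in the Zeb2 counts was not tested. Prdm1, which encodes the repressor Blimp-1, was at 1.56, 2.06 and 2.65 CPM in monotherapy and 2.86, 2.19 and 2.80 CPM in the combination. These ranges overlapped, with a log2 fold change of 0.32 ± 0.28 (SE; edgeR adjusted p = 0.929). It was 0.44 with combination replicate 1 alone. Plasma cells hold much Blimp-1, and their gene Jchain had 167 to 371 counts in monotherapy and 131 to 208 in the combination, above the 56 to 110 counts of Prdm1; its part in Prdm1 was not tested. Klrg1, the receptor that marks terminal effectors, had 2 to 3 counts in monotherapy libraries and 8 to 23 in combination libraries and did not pass the count filter.

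Id2 and Runx3 were, with Eomes, the most abundant factors. Id2, the inhibitor of E proteins, was at 107, 89.8 and 77.3 CPM in monotherapy and 92.4, 69.3 and 49.6 CPM in the combination. The spread within each group was wide and the groups overlapped, with a log2 fold change of -0.37 ± 0.22 (SE; edgeR adjusted p = 0.795). It was 0.01 with combination replicate 1 alone as that group. Runx3, which maintains CD8 and silences CD4, was at 137, 163 and 168 CPM in monotherapy and 143, 178 and 237 CPM in the combination. Combination replicate 3 was the highest, combination replicate 1 lay within the monotherapy range, and the log2 fold change was 0.26 ± 0.19 (SE; edgeR adjusted p = 0.884). It was -0.13 with combination replicate 1 alone. With the summed melanocyte list as a covariate, the log2 fold changes of Id2 and Runx3 were 0.24 and -0.27, opposite in sign, and neither passed.

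Zfp683 and Bhlhe40, which like Prdm1 are linked to residency, lay lower on average and did not pass. Zfp683, which encodes Hobit, was at 4.09, 4.07 and 5.98 CPM in monotherapy and 2.31, 3.22 and 5.00 CPM in the combination. Only combination replicates 1 and 2 lay below all monotherapy libraries, and the log2 fold change was -0.42 ± 0.30 (SE; edgeR adjusted p = 0.877). With combination replicate 1 alone it was -1.04. Bhlhe40, a stress- and activation-induced repressor, was at 8.97, 18.5 and 11.8 CPM in monotherapy and 10.5, 8.36 and 6.50 CPM in the combination. Monotherapy replicate 2 was the highest, and without it the log2 fold change went from -0.63 ± 0.28 (SE) to -0.30, with edgeR adjusted p of 0.603 and 1.00. It was -0.33 with combination replicate 1 alone. With the melanocyte covariate Bhlhe40 was at 0.088 and did not pass, while Zfp683 was at -1.40 and passed (edgeR adjusted p = 0.0356).

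Ikzf2 and Rora complete the set. Ikzf2 encodes Helios, known from regulatory T cells and from regulatory CD8 T cells. It was at 27.9, 29.4 and 26.4 CPM in monotherapy and 20.2, 23.5 and 27.9 CPM in the combination. Combination replicate 3 lay within the monotherapy range and the other 2 below it, with a log2 fold change of -0.22 ± 0.15 (SE; edgeR adjusted p = 0.847). It was -0.47 with combination replicate 1 alone and -0.51 with the melanocyte covariate (edgeR adjusted p = 0.182 with the covariate). Of 6 markers of CD4 and regulatory T cells 0 passed and 4 lay below 0. Their summed level was 27.3 to 33.0 CPM in monotherapy and 22.2 to 36.6 CPM in the combination. Foxp3 had 57 to 136 counts in monotherapy and 24 to 95 in the combination, lowest in combination replicate 1, where Ctla4 of the same list was highest at 842 counts. The part of these markers in Ikzf2 was not tested. Rora encodes the nuclear receptor RORα, needed by innate lymphoid cells and some helper T cells. It was at 13.1, 12.8 and 11.7 CPM in monotherapy and 7.47, 9.68 and 9.22 CPM in the combination. The groups did not overlap, as for 7.54% of all genes in this direction, and the log2 fold change of -0.51 ± 0.16 (SE) did not pass (edgeR adjusted p = 0.314). It was -0.75 with combination replicate 1 alone as that group. Of the 10 factors, 4 had an unadjusted p under 0.05 (Tbx21, Eomes, Rora and Bhlhe40), against 8% of all genes tested.

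**Figure D4:**
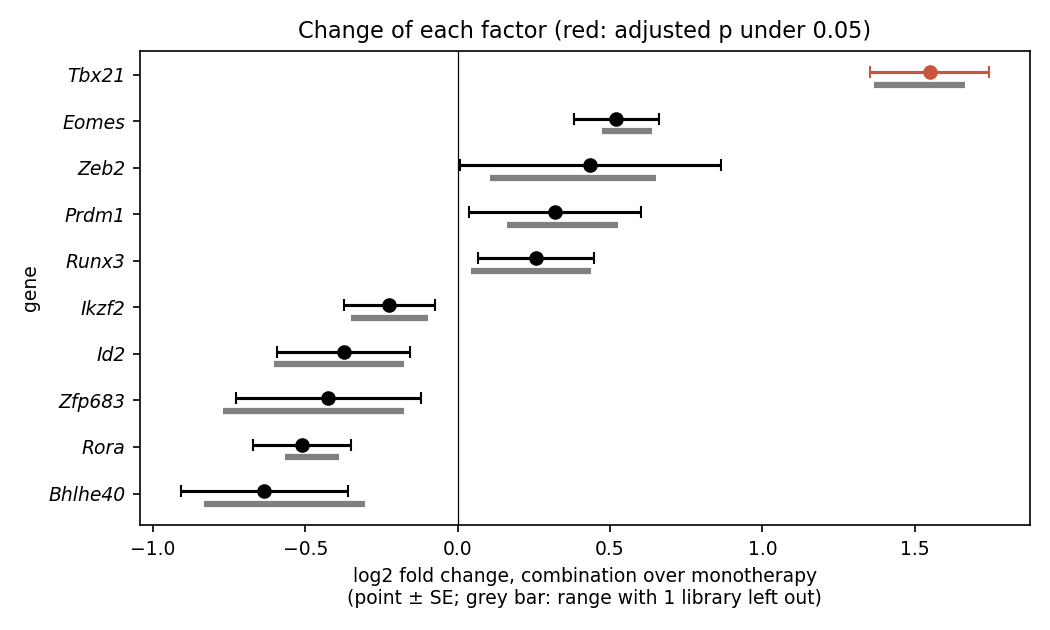
Log2 fold change of each factor, combination over monotherapy, as point ± SE from edgeR, with grey bars for the range when 1 library is left out. Tbx21 at 1.55 is the only point in red, with an adjusted p under 0.05, and its grey bar runs from 1.37 to 1.67.

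By level per kilobase in monotherapy, the order was Id2, Runx3, Eomes, Tbx21, Zfp683, Bhlhe40, Ikzf2, Rora, Prdm1 and Zeb2. Id2 stood at 71.8 ± 11.6 CPM per kilobase and Zeb2 at 0.0289 ± 7.63e-03 (SD, n = 3 each). The library ranges of Runx3 and Eomes overlapped, and so did those of Tbx21 and Zfp683, of Zfp683 and Bhlhe40, and of Bhlhe40 and Ikzf2. In the combination Tbx21 kept the place after Id2, Eomes and Runx3, but its range of 12.3 to 14.4 no longer met that of Zfp683 at 1.57 to 3.40. Its level lay above 50.5% of tested genes in monotherapy and above 73.6% in the combination. There the ranges of Id2 and Eomes overlapped, and so did those of Eomes and Runx3, of Zfp683 and Ikzf2, and of Ikzf2 and Bhlhe40. The length is the deposited exon length of each gene, 19942 bases for Zeb2 and 1270 for Id2, and a gene read from a shorter isoform is understated.

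Genes reported as T-bet or Eomes targets rose in part with Tbx21. Of 20 such genes 19 were tested, of which 6 rose, 0 fell and 13 did not pass, and 18 had a log2 fold change above 0. Of the 15142 genes tested, 0.951% were called higher and 7549 lay above 0. Their median was 0.87, against 0.00 over all genes. In 13 of the 19 every combination library lay above every monotherapy library, as in 7.17% of all genes. The list was written with earlier results of these data known.

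Among the targets, Gzmb, a serine protease of cytotoxic granules, was at 2.95, 2.79 and 2.46 CPM in monotherapy and 9.30, 8.55 and 7.46 CPM in the combination. The groups did not overlap, and the log2 fold change was 1.62 ± 0.19 (SE; edgeR adjusted p = 5.05e-03). Il18rap, Klrc1, Gzma, Ccl5 and Cxcr3 rose as well, by 1.25, 1.98, 1.51, 1.15 and 0.92 on the log2 scale. Gzmb and Il18rap passed whichever library was left out. Cxcr3 did not pass with any 1 of the monotherapy replicates left out, and Klrc1, Gzma and Ccl5 did not pass with any 1 of these or combination replicate 2 left out. The number of targets that rose was then 2 without each monotherapy replicate and 3 without combination replicate 2. It was also 2 with the summed level of 7 B cell markers as a covariate (Gzmb and Il18rap). With it, Gzma, Ccl5, Klrc1 and Cxcr3 had log2 fold changes of 1.56, 1.20, 1.93 and 0.92, and none of these 4 passed. That sum was 40.1 to 58.6 CPM in monotherapy and 46.3 to 78.8 CPM in the combination, and 5 of the 7 markers lay below 0, with a median of -0.44. The 1 that rose, Cd22, was at 8.33 and 22.5 CPM on average.

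Ifng, Prf1 and Il2rb were among the 13 targets that did not pass. Il2rb was nearest to the threshold, at 0.76 ± 0.15 (SE; edgeR adjusted p = 0.0515) on the log2 scale, with groups that did not overlap. It passed in DESeq2 and limma-voom, but not with any 1 of the monotherapy replicates left out or with the B cell or melanocyte covariate. Ifng, the cytokine classically tied to T-bet, lay at 0.00 ± 0.21 (SE) on the log2 scale. Prf1, the pore-forming protein, had 0.04 ± 0.12 (SE). Cx3cr1 and S1pr5, a chemokine and a lipid receptor of terminal effectors, were below 1 CPM on average in each group. Cx3cr1 had a log2 fold change of 0.54 ± 0.54 (SE) with groups that overlapped. S1pr5 had 1.16 ± 0.49 (SE; edgeR adjusted p = 0.565), with every combination library above every monotherapy library.

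**Figure D5:**
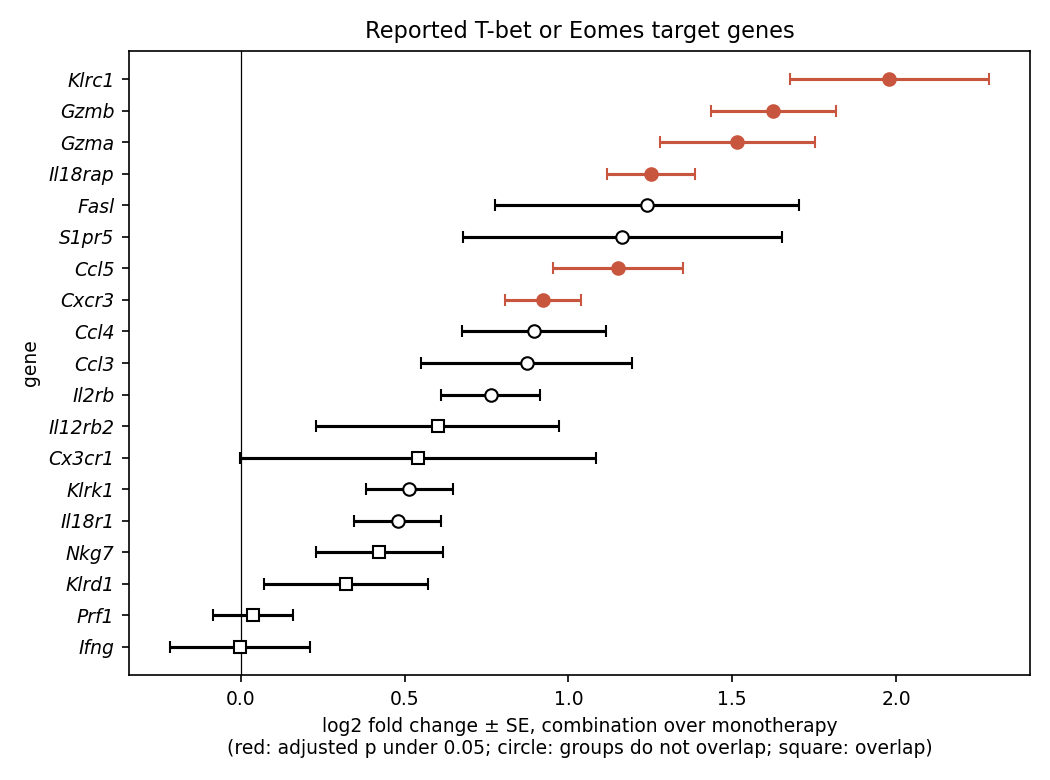
Log2 fold change ± SE of the 19 tested T-bet or Eomes target genes, combination over monotherapy; red marks an adjusted p under 0.05 and circles mark genes whose groups do not overlap. The 6 genes in red lie between 0.92 and 1.98, while Ifng and Prf1 lie at 0.00 and 0.04.

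Cofactors, relatives and antagonists of the 10 factors showed 1 call. Of 22 tested (of 23), Runx2 rose, 0 fell and 21 did not pass, with 8 above 0 and a median of -0.07. Across all 15142 genes 0.951% were called higher, and 7549 lay above 0. Runx2, the Runx3 relative best known from bone and also active in memory CD8 T cells, was at 11.4, 16.1 and 15.3 CPM in monotherapy and 26.1, 29.5 and 34.4 CPM in the combination. Its groups did not overlap, and the log2 fold change was 1.07 ± 0.17 (SE; edgeR adjusted p = 0.0207). It did not pass with any 1 of the monotherapy replicates or combination replicate 2 left out, with libraries scaled by total counts only, or with the B cell or melanocyte list as a covariate. Its log2 fold changes in these last 3 settings were 1.06, 1.02 and 0.84. Cbfb, the shared partner of Runx proteins, had 218 ± 17.1 and 218 ± 23.4 CPM (SD, n = 3 each). Bcl6, the repressor opposed to Blimp-1, was at 16.9, 17.7 and 17.0 CPM in monotherapy and 13.1, 13.5 and 13.0 CPM in the combination, and did not pass (log2 fold change -0.39 ± 0.13, SE; edgeR adjusted p = 0.368). Id3 and Zeb1 had log2 fold changes of 0.17 ± 0.15 and 0.01 ± 0.13 (SE).

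Genes of tissue residency and of recirculation, which Hobit, Blimp-1 and Runx3 are known to control in opposite directions, gave 1 call. Of 10 tested residency genes, Itgae fell, 0 rose and 9 did not pass, and 7 of the 10 lay below 0 with a median of -0.21. Across all 15142 genes 0.132% were called lower in edgeR, and 7593 lay below 0. Itgae, the CD103 integrin chain, was at 287, 275 and 272 CPM in monotherapy and 151, 161 and 173 CPM in the combination. Its groups did not overlap, and the log2 fold change was -0.78 ± 0.13 (SE; edgeR adjusted p = 0.0230). It did not pass with any 1 of the monotherapy replicates or combination replicate 2 left out, with total-count scaling, or with the B cell covariate. In these last 2 settings it was at -0.79 and -0.78. Of 6 recirculation genes 0 passed in edgeR, with 0 at an unadjusted p under 0.05 and a median of -0.15. In DESeq2, which called 1.41% of all genes higher and 0.337% lower, and in limma-voom, which called 0.819% and 0.0925%, 0 of the 6 passed as well. S1pr1, the receptor for exit from the node, was at 345 to 385 CPM in monotherapy and 307 to 324 CPM in the combination and did not pass (edgeR adjusted p = 0.831).

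The genes whose pattern over the 6 libraries was closest to that of Tbx21 were Kif2c, Tpx2, Kif11, Kif15 and Ccna2. Likeness was the root mean square difference of log2 CPM after centring each gene, over 9016 genes with a mean of at least 5 CPM. That mean was taken over all 6 libraries, and Kif2c met it only through its combination values. The filter can therefore favour genes that were higher in the combination. It was 0.11 for Kif2c, a microtubule-depolymerizing kinesin, and 0.12 for Tpx2, a spindle assembly factor, against a median of 0.86 over all genes compared. Kif11 and Kif15, spindle kinesins, and Ccna2, cyclin A2, were at 0.16, 0.17 and 0.17. Kif2c was at 2.45, 3.51 and 3.35 CPM in monotherapy and 8.63, 8.41 and 11.3 CPM in the combination, lowest in monotherapy replicate 1 as Tbx21 was. All 5 rose in edgeR, as Tbx21 did, so the likeness includes the group difference itself.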

How the data were processed

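RNA from sorted lymph node CD8+ T cells of 6 mice was sequenced as oligo(dT)-selected libraries, per the labels' protocols. The deposited values are raw counts, whole reads per gene, with gene lengths in the file headers. The submitters' processing notes name the aligner STAR 2.5.2b, DESeq2, and featureCounts with Subread 1.5.2. The strand setting, annotation and build were not found in the labels or file headers. Of 10 members, 9 had the same coordinates in GENCODE M21 (GRCm38). Another 6 columns matched no sample's labels and were left out, and 174 rows had no gene name.

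Counts were tested in R 4.3.3 with edgeR 4.0.16 (filterByExpr, TMM, quasi-likelihood F-test, no covariate; the labels give no batch), and p-values were adjusted over 15142 genes. CPM is TMM-scaled, and a kilobase value divides it by gene length. Ratios used counts plus 0.5. limma 3.58.1 and DESeq2 1.42.0 served as alternatives. The fit was tested on simulated data with 2-fold and 3-fold changes. It called 41 of 50 2-fold rises (82%) and 40 of 50 2-fold falls (80%). Of the 3-fold rises and falls it called 49 of 50 and 46 of 50. Beside these there were 13 false calls among 14832 genes. Changes were planted only in genes with a mean of at least 2 CPM, so these shares do not cover Zeb2, Cx3cr1 or S1pr5. Smaller changes, such as those of the factors that did not pass, were not simulated. The named genes were the 10 factors, the ratio partners, up to 4 genes of each list with the smallest p, every list gene past the threshold, and the 5 genes nearest to Tbx21. A few others were named after their values were seen, among them Gm33460, Cbfb, Prf1, Ifng, Il2rb, Cx3cr1, S1pr5 and Klrg1. The factors and lists were chosen with earlier results of these data known. A gene of the T-box target list is not reported here.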

Additional observations from a re-analysis of the deposited data

How the results depend on the processing

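Tbx21 had log2 fold changes of 1.37 to 1.67 in all 17 other settings run, the fit with combination replicate 1 alone among them. It passed in each setting that kept more than 1 combination library. Eomes passed in 1 of 17, without combination replicate 1, and its log2 fold change ran from 0.47 to 0.64 over the left-out libraries. The summed melanocyte list is mostly Pmel and was higher in every combination library than in any monotherapy library. With it as a covariate, Id2 was at 0.24, Runx3 at -0.27 and Bhlhe40 at 0.088, all opposite in sign. In that fit Eomes was at 0.23, and Zfp683 passed at -1.40. The fit with combination replicate 1 as the lone combination library was chosen after seeing the data. It assumes that this library varies like the monotherapy ones. There Zeb2 was at -0.081, Id2 at 0.011, Runx3 at -0.13 and Rora at -0.75. The cause was not tested.

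Over all genes, 144 higher and 20 lower calls became 340 and 113 with no count filter, 260 and 62 in DESeq2, 231 and 57 with the replicate number as a block, 555 and 297 with the melanocyte covariate and 47 and 4 with the B cell covariate. Leaving out 1 library gave 32 to 233 higher and 2 to 49 lower. With the melanocyte covariate 1 of the 10 factors and 1 cofactor (Ikzf3) were lower. Cofactors called higher numbered 0 with total counts only, with the melanocyte covariate and with the B cell covariate, 2 with no count filter (Runx2 and Bhlhe41), and 0 to 2 over the left-out libraries. T-box targets called higher numbered 6 in the main fit, 2 with the B cell covariate and 2 to 8 over the left-out libraries. They numbered 9 with no count filter, 8 in DESeq2 and with the melanocyte covariate, and 7 in limma-voom and with the replicate block. Residency genes called lower numbered 0 with total counts only and with the B cell covariate, 3 with no count filter or with the replicate block (Itgae, Rgs1 and Rgs2), and 0 to 1 over the left-out libraries. Factors called higher numbered 1 to 2 over the left-out libraries.

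The labels do not say that a replicate number pairs mice. Deviations of same-numbered libraries from their group means correlated at 0.15, -0.06 and 0.28 across genes. Differently numbered libraries correlated at -0.23 to 0.12. Libraries numbered 1 and 3 correlated best with their own number, and those numbered 2 did not. The numbers were not taken as pairs in the main fit. With the replicate block Tbx21 was at 1.58 and no call among the 10 factors changed. No ratio changed sign in any setting, and no level per kilobase moved by more than its SD with plain library totals. At 18 to 42 counts per library, depth limits what can be said of Zeb2.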

Other observations

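Gm33460, the antisense neighbour of Eomes, was noticed after its values were seen. It had a log2 fold change of 1.65 ± 0.37 (SE), its groups did not overlap, and it did not pass (edgeR adjusted p = 0.0914). Bhlhe41, the paralog of Bhlhe40, had 0, 0 and 1 counts in monotherapy and 0, 34 and 29 counts in combination replicates 1, 2 and 3. Combination replicates 2 and 3 were also the libraries with Dct and Tyrp1 counts, and whether Bhlhe41 comes from the same cells was not tested. Cd22, a B cell list gene, rose (log2 fold change 1.44; edgeR adjusted p = 0.0244), while Ms4a1, another gene of that list, had a log2 fold change of -0.44 and did not pass.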
